A study of Mus musculus with 39 samples.

Results

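A set of 10 genes of the piRNA pathway was followed in single mouse testis cells: Piwil1, Piwil2, Mael, Tdrd1, Tdrd5, Tdrd6, Tdrd9, Mov10l1, Asz1 and Ddx4. These 10 genes were taken by symbol from the 32285 genes counted in both single-cell libraries. Each symbol was found, and each gene had UMIs (unique molecular identifiers, 1 per captured RNA molecule) in both libraries. The study examined spermatogenesis in mice that lack Kdm6a (also called Utx), an X-linked H3K27 demethylase, in germ cells. Droplet 3′ single-cell RNA-seq was made from whole dissociated testis, with 1 control library (genotype Kdm6a fl/y; Cre-) and 1 conditional knockout library (cKO, genotype Kdm6a fl/y; Ddx4-Cre+). Both groups carried the floxed Kdm6a allele, and the groups differed by the Cre, which is driven by Ddx4, one of the 10 genes. Chromatin of sorted cKIT+ spermatogonia of the same genotypes was profiled by ATAC-seq and by CUT&Tag for H3K27me3, each in 2 control and 3 cKO libraries, with 1 IgG library of the control genotype. The labels give no age and no number of animals per library.

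PIWI-interacting RNAs (piRNAs) are small RNAs of the germ line that guide PIWI proteins to transposon and other transcripts. Their precursors are transcribed as long RNAs, handed to the processing machinery by helicases, cut at the outer face of mitochondria and loaded onto PIWI proteins, in perinuclear granules called nuage and the chromatoid body that Tudor-domain proteins assemble. In mouse males, loss of many of these factors arrests germ cells in meiosis or in spermatids.

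Promoter sequence was at hand for 8 of the 10 genes from RefSeq (GRCm38.p6); Piwil2 and Tdrd6 had no entry. The whole upstream stretch of Mael and that of Mov10l1 are shown because these promoters carried an ATAC region in every library. In Mov10l1 each region covered the printed stretch. In Mael the region ended at 166238842 (control 1), 166238871 (control 2), 166238847 (cKO 1) and 166238874 (cKO 2). These ends fall short of the marked CACGTG, which lies within chr1:166238950-166238979. The region of cKO 3, which ended at 166239071, spanned it. Short stretches of 30 bases are shown for the other genes that held the hexamer CACGTG, the core of the E-box read by many basic helix-loop-helix proteins. Capitals mark CACGTG, and each line reads 5′ to 3′ on the strand of the gene. Mael lies at chr1:166238745-166238994 on the minus strand and Mov10l1 at chr15:88982744-88982890 on the plus strand, both upstream of the annotated gene. The Piwil1 stretches lie at chr5:128736055-128736084 and chr5:128736080-128736109 (plus), Tdrd1 at chr19:56826186-56826215 (plus), Tdrd9 at chr12:111971382-111971411 and chr12:111971452-111971481 (plus), and Ddx4 at chr13:112652322-112652351 (minus).
Mael: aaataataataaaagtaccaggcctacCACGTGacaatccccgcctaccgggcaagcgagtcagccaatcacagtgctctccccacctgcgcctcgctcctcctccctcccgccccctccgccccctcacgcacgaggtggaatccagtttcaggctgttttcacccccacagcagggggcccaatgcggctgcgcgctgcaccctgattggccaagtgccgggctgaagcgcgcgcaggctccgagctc
Mov10l1: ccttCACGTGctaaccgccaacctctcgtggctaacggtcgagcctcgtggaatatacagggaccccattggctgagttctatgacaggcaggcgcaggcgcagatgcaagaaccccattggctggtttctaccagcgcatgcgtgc
Piwil1, first: aaaaccgccaccCACGTGgcagccaatcag
Piwil1, second: atcagggcccagCACGTGtccacctcgccg
Tdrd1: tggggctgcgcgCACGTGggagtaaactgc
Tdrd9, first: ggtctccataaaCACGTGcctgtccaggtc
Tdrd9, second: gcacgaggctccCACGTGcatgcagggcct
Ddx4: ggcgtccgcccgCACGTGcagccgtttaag

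CACGTG was found within 250 bases upstream of a start in 6 of the 8 genes, and not in Tdrd5 or Asz1. Piwil1 and Tdrd9 held 2 matches each. Of all 32851 RefSeq mouse windows of that length, 6.02% held it, and of those with at least 50% GC, 7.83%. Counted by gene over any window, as for the 8 genes, 6.86% of 27025 genes held it. The windows of the 10-gene set ran from 46.4% to 75.2% GC. Of 15 other piRNA pathway genes with a window, 3 held it (Fkbp6, Pld6 and Stk31, named after the search). The hexamer was searched after the starts of these sequences had been seen, so its count supports nothing, and a match is a description of letters, not a site. A further 2 patterns were searched on both strands. CAGTTG was in 1 of the 8 genes and 11.1% of windows, and AACNG, which overlaps CAGTTG on the opposite strand, was in 7 of the 8 and 74.2% of windows.

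The control library held 229882646 UMIs and the cKO library 172368722. Barcodes of at least 3000 UMIs were taken as cells, which left 11252 control and 8520 cKO cells with medians of 8410.5 and 8499 UMIs; 30 barcodes occurred in both. Cells were assigned to gates by the highest mean score over lists of stage markers that hold none of the 10 genes, and 7971 control and 6125 cKO cells fell in 6 germ-cell gates. The gates held 163 and 158 cells for spermatogonia (control and cKO), 178 and 54 for meiotic entry, 1175 and 815 for early prophase, 919 and 679 for pachytene and later, 1570 and 1549 for round spermatids, and 3966 and 2870 for elongating spermatids. Levels are counts per 1e6 UMIs of the same cells (CPM), with exact 95% Poisson intervals, and differences are log2 ratios, cKO over control, with exact conditional intervals. These intervals cover counting error only. With 1 library per genotype there was no test, and a difference between genotypes cannot be told apart from one between these 2 libraries.

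Kdm6a itself was lower in the cKO library in meiotic entry, early prophase and round spermatids. In spermatogonia, pachytene and later and elongating spermatids the interval of its ratio spanned equal levels. In the early prophase gate 103 control and 6 cKO UMIs were counted (log2 ratio -3.48, interval -4.96 to -2.31), in meiotic entry 44 and 2, and in round spermatids 25 and 5 (-2.32, -4.06 to -0.91). Spermatogonia had 16 and 10 UMIs (-0.29, interval -1.59 to 0.94), and the Leydig gate, which is not of the germ line, had 12 and 7. In the Sertoli gate, also somatic, Kdm6a was higher in the cKO library, with 17 and 25 UMIs (0.99, 0.04 to 1.97). That gate held unlike cells: by Leiden clustering 243 control and 102 cKO cells fell in cluster 10, and 77 and 137 in cluster 19. The early prophase gate did too, with 258 control and 63 cKO cells in cluster 12. The labels do not say which exons were removed, and 3′ reads from a gene whose end is kept would still be counted, so these counts are a limited check of the labels.

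In both libraries 8 genes had their highest level in the early prophase gate, and 2, Mael and Tdrd6, in the pachytene and later gate. The 8 were Piwil1, Piwil2, Tdrd1, Tdrd5, Tdrd9, Mov10l1, Asz1 and Ddx4. In the lowest gate their levels were 8.66-fold (Ddx4) to 44.3-fold (Mov10l1) below the highest in the control library. The first and second gate could not be separated by counting error for Asz1 in either library, nor for Mael and Mov10l1 in the cKO library. Later markers were also present in the early prophase gate. There the pachytene and later list summed to 2132 CPM in control and 1980 in cKO, against 2823 and 2613 in its own gate. A peak in the early prophase gate thus does not place a gene before pachytene. The share of all genes highest in each gate is not given here, so the count of 8 is a description. In cells thinned to 3000 UMIs, the median early prophase cell showed 5 of the 10 genes in each library, against 1 in elongating spermatids and 1 in Leydig cells.

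**Figure D1:**
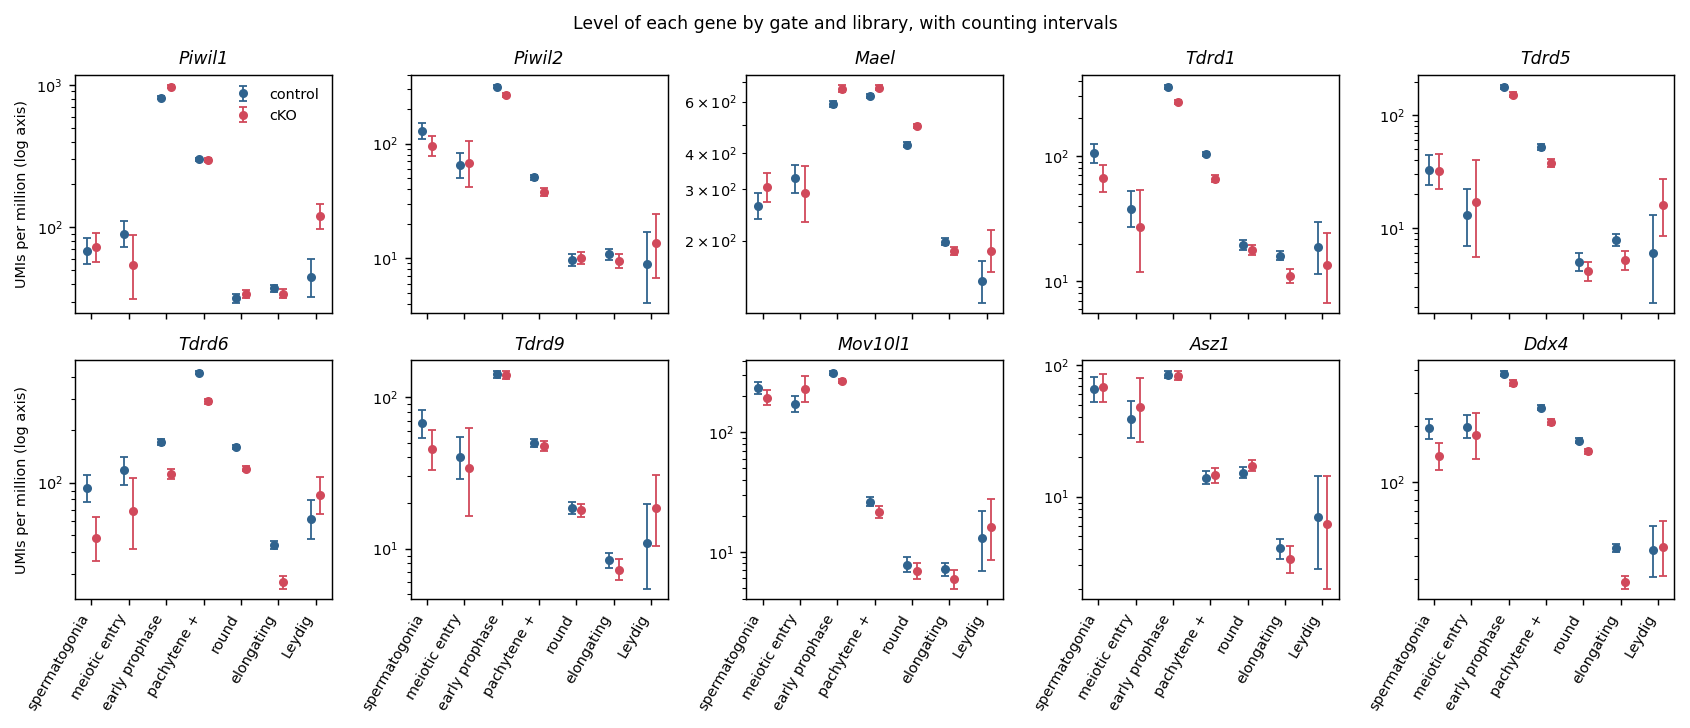
Level of each gene in CPM (log axis) in 6 germ-cell gates and the Leydig gate, control in blue and cKO in red, with exact 95% Poisson intervals as bars; "pachytene +" is the pachytene and later gate. The early prophase gate, which also carried pachytene and later markers, is highest for 8 genes, while Mael and Tdrd6 peak 1 gate later.

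The 10 genes were on balance lower in the cKO library. Over all cells, the median log2 ratio of the 10 was -0.33, against -0.02 for all 17285 genes with at least 100 UMIs. Piwil2, Tdrd1, Tdrd5, Tdrd6, Tdrd9, Mov10l1 and Ddx4 had intervals wholly below equal levels, 7 of 10 against 31.6% of all genes tested. Mael alone had an interval wholly above, against 25.9% of all genes. These shares are not matched for UMI count, which sets the width of an interval. Asz1, the lowest of the 10, had 2907 control and 2130 cKO UMIs, far above the filter of 100. The same limit holds for every share of intervals or directions given below. None of the 10 was past 1.5 times in either direction over all cells, where 4.02% of genes were past it downward and 1.38% upward. With the 6 gates weighted equally the median was -0.18, Mov10l1 moved from -0.41 to -0.06, Tdrd5 from -0.45 to -0.21 and Piwil2 from -0.41 to -0.24. All 10 passed the filter of 100 UMIs here, and 9 did in spermatogonia and 5 in meiotic entry.

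Within gates, the median of the 10 was below that of all genes in each of the 6. It was -0.35 in spermatogonia (all genes -0.08), -0.16 in meiotic entry (-0.04), -0.20 in early prophase (-0.08), -0.28 in pachytene and later (-0.04), -0.09 in round spermatids (0.02) and -0.27 in elongating spermatids (-0.10). Under the other settings run it reached from -0.42 to -0.22 in spermatogonia, -0.31 to 0.05 in meiotic entry, -0.26 to -0.12 in early prophase, -0.37 to -0.21 in pachytene and later, -0.28 to -0.04 in round spermatids and -0.47 to -0.15 in elongating spermatids. The genes past 1.5 times lower numbered 2 in spermatogonia (7.77% of all genes), 2 in meiotic entry (13.2%), 1 in early prophase (6.63%), 1 in pachytene and later (4.2%), 0 in round spermatids (7.44%) and 3 in elongating spermatids (6.52%). No gene of the 10 was past 1.5 times higher in any germ-cell gate, where 1.21%, 7.2%, 0.366%, 0.411%, 1.34% and 0.459% of all genes were, in the same order of gates. Intervals wholly below equal levels numbered 6 in spermatogonia (17.1% of all genes), 1 in meiotic entry (16.2%), 6 in early prophase (29.9%), 6 in pachytene and later (24.9%), 2 in round spermatids (26.3%) and 5 in elongating spermatids (30.6%). Those wholly above numbered 0 in spermatogonia (9.2%), 0 in meiotic entry (14.4%), 2 in early prophase (Piwil1 and Mael, 14%), 1 in pachytene and later (Mael, 16.2%), 1 in round spermatids (Mael, 27.1%) and 0 in elongating spermatids (10.1%). Tdrd1, Tdrd6, Tdrd9 and Ddx4 were below equal levels in every gate, 4 of 10 against 14% of 11931 genes, and 0 were above in every gate, against 5.22%. In elongating spermatids these 4 genes were near or below their level in the Leydig gate, as given with the clusters below.

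**Figure D2:**
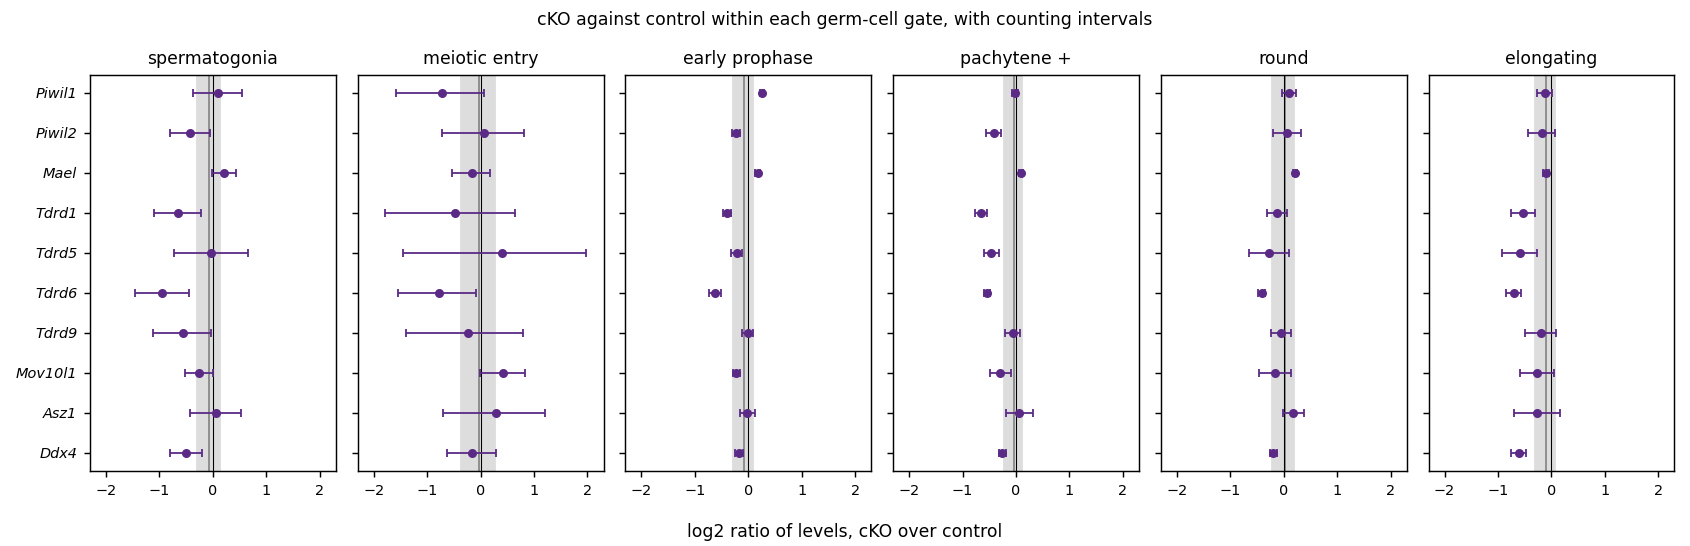
Log2 ratio of levels, cKO over control, for each gene in each germ-cell gate; points are ratios, bars exact 95% counting intervals, the grey line and band the median and middle 50 percent of all genes tested. Tdrd6 lies left of equal levels in all 6 panels, and Mael right of it in 4.

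Piwil1 (MIWI), the PIWI protein of pachytene spermatocytes and round spermatids, had 814 CPM (interval 799 to 830) in control early prophase and 972 (951 to 993) in cKO. This was a log2 ratio of 0.26 (0.21 to 0.30), with the cKO library higher. The gate held a smaller part of low-Piwil1 cells in the cKO library: 258 control and 63 cKO cells fell in Leiden cluster 12, where Piwil1 had 57.8 and 55.2 CPM. In cluster 5 the log2 ratio was 0.14 with an interval above equal levels, and the intervals of clusters 12 (-0.07), 14 (0.11) and 17 (-0.07) spanned them. In the pachytene and later gate the libraries read 302 and 297 CPM, and their intervals overlapped. Round spermatids had 31.7 and 33.9 CPM, but in the 5 clusters that held most cells of that gate Piwil1 was lower in the cKO library, with log2 ratios from -0.82 to -0.06 and 2 intervals below equal levels. In early prophase cells thinned to 3000 UMIs, 58.6% of control cells (exact binomial interval 55.7 to 61.4) and 70.9% of cKO cells (67.7 to 74.0) had a Piwil1 UMI, against 69.4% and 79.4% unthinned, in the same mix of clusters. The Leydig gate, which should lack the gene, had 13.3% and 22.1% after thinning, with median depths of 8675 and 9331 UMIs in early prophase cells and 7688.5 and 6616.5 in Leydig cells. The Leydig gate's 97 cKO Piwil1 UMIs (119.6 CPM, against 45 UMIs and 44.7 CPM in control) included 48 in 3 cells.

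Piwil2 (MILI), the PIWI protein present from fetal germ cells to round spermatids, was lower in the cKO library in spermatogonia, early prophase and pachytene and later. It had 129 CPM in control and 96.3 in cKO spermatogonia (log2 ratio -0.43, -0.80 to -0.06). Early prophase had 313 and 267 CPM (-0.23, -0.30 to -0.16), and the pachytene and later gate 50.7 and 37.9 (-0.42, -0.57 to -0.27). Meiotic entry had 65.2 and 68.4 CPM (0.07, -0.73 to 0.81) and round spermatids 9.61 and 9.99, both with overlapping intervals.

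Among the Tudor-domain proteins, Tdrd6, a large scaffold of the chromatoid body, was lower in the cKO library in 6 of 6 germ-cell gates, with log2 ratios from -0.94 to -0.41 and every interval below equal levels. The pachytene and later gate, its peak, had 425 CPM (416 to 433) in control and 291 (283 to 300) in cKO. Spermatogonia had 92.5 and 48.1 CPM, from 123 and 49 UMIs. Round spermatids had 160 and 120 CPM (-0.41, and from -0.60 to -0.42 in the 5 clusters of that gate), and elongating spermatids 43.8 and 26.8. Tdrd6 was also lower among barcodes of 1 to 99 UMIs, which hold mostly free RNA: 131 CPM in control and 106 in cKO (-0.31, -0.45 to -0.17). In the Sertoli gate it had 114 and 65.7 CPM, and in the Leydig gate 61.6 and 85.0 (0.46, -0.05 to 0.98). The Sertoli gate drew on clusters 10 and 19 in unlike numbers. Over all cells of these clusters Tdrd6 had 66.5 and 43.4 CPM in cluster 10, and 149 and 56.9 in cluster 19. The part of free RNA in the germ-cell differences was not tested.

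Tdrd1, which binds PIWI proteins in nuage, had 355 CPM (345 to 366) in control early prophase and 269 (258 to 280) in cKO (log2 ratio -0.40). The pachytene and later gate had 104 and 65.9 CPM (-0.65, -0.76 to -0.55), and spermatogonia 105 and 66.8 CPM (-0.66, -1.10 to -0.23). Over the germ-cell gates together Tdrd1 was past 1.5 times lower, with 84.5 and 55.8 CPM; 4.71% of genes were, and 1.48% were past it upward. With the 6 gates weighted equally its log2 ratio was -0.48, which is not past 1.5 times. Its free RNA read 44.2 and 41.5 CPM, and the interval of that ratio spanned equal levels.

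Tdrd5, needed for spermiogenesis and for pachytene piRNA production, had 177 and 153 CPM in early prophase (log2 ratio -0.22) and 52.3 and 38.0 in pachytene and later (-0.46, -0.61 to -0.32). In spermatogonia it had 33.1 and 32.4 CPM. Tdrd9, which joins a Tudor domain to a helicase, had 141 CPM (134 to 147) in control and 140 (132 to 148) in cKO early prophase. In spermatogonia it had 66.9 and 45.2 CPM (-0.57, -1.11 to -0.04), the single gate in which its interval left out equal levels. By cluster it read otherwise: the interval of cluster 13, which held most of the spermatogonia gate, spanned equal levels (-0.36, -0.76 to 0.03), and those of clusters 4 (-0.14), 5 (-0.13) and 17 (-0.34) lay wholly below.

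Of the RNA helicases, Mov10l1, which feeds piRNA precursors into processing, had 315 CPM (305 to 325) in control and 270 (259 to 281) in cKO early prophase, a log2 ratio of -0.22. Spermatogonia had 235 and 195 CPM, and meiotic entry 174 and 233 (0.42, -0.01 to 0.83), where its order between libraries was the opposite. When all cells were grouped by Leiden clustering, 129 control and 25 cKO cells of this gate fell in cluster 12 (Stra8 among its top genes), and 26 and 21 in cluster 13. Over all cells of those clusters Mov10l1 had log2 ratios of -0.14 (-0.40 to 0.12) in cluster 12 and -0.28 (-0.48 to -0.08) in cluster 13, and with a gate margin of 0 its ratio in meiotic entry was -0.26. Its level was already down to 26.3 and 21.5 CPM in pachytene and later.

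Ddx4, the VASA helicase of nuage, had 194 CPM (171 to 219) in control and 138 (116 to 162) in cKO spermatogonia, and 383 and 339 CPM in early prophase. The log2 ratio was -0.50 in the first and -0.18 in the second, and its interval was below equal levels in 5 of 6 gates. Only the cKO library carried the Cre driven by Ddx4, and the part of the Cre in the Ddx4 ratios was not tested. The pachytene and later gate had 251 and 210 CPM, round spermatids 167 and 146 (-0.19, and from -0.47 to -0.27 in the 5 clusters of that gate), and elongating spermatids 44.2 and 28.9 (-0.61). Free RNA also read lower in the cKO library, at 122 and 108 CPM. The Leydig gate had 42.7 and 44.4 CPM of Ddx4, so the elongating spermatid values were near or below a gate that is not of the germ line.

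Asz1 (GASZ), an anchor of piRNA processing at mitochondria, had 84.4 CPM (79.5 to 89.6) in control and 83.3 (77.3 to 89.7) in cKO early prophase. No germ-cell gate gave an interval that left out equal levels, and the log2 ratios ran from -0.27 to 0.29. Mael, a nuage protein of the pathway that persists into round spermatids, ran the other way from most of the set. It had 590 and 665 CPM in early prophase (0.17, 0.12 to 0.22), 627 and 669 in pachytene and later (0.09, 0.06 to 0.13) and 427 and 495 in round spermatids (0.21, 0.18 to 0.25). Elongating spermatids had 199 and 185 CPM, with the cKO library lower.

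The early prophase gate was made of unlike cells in the libraries. Leiden clusters were made with the 10 genes left out of the input, and are given here with 2 of their top genes. They put 258 of its control and 63 of its cKO cells in cluster 12 (Stra8, Zcwpw1), 310 and 236 in cluster 14 (Meiob, Dazl) and 500 and 460 in cluster 5 (Sycp1, Tex101). Levels were therefore read again in clusters 3, 4, 5, 12, 13, 14 and 17, a choice made after the gate values were seen. These 7 are given by number, since the leading genes of 2 went against the marker list with the highest mean score in them (early prophase). The top 10 of cluster 12 held Stra8, of the meiotic entry list, and that of cluster 17 held Pou5f2, of the pachytene and later list. Ddx4 was lower in the cKO library in 7 of 7 clusters with every interval below equal levels (log2 ratios -0.48 to -0.22). Mael was higher in 7 of 7 with every interval above (0.12 to 0.22). Tdrd1, Piwil2 and Mov10l1 had 6 intervals below, Tdrd6 had 5, Tdrd5 had 4 and Tdrd9 had 3. Piwil1 had 1 above and 0 below, and Asz1 had 0 on either side. Piwil2, Tdrd1, Tdrd6, Mov10l1 and Ddx4 were below equal levels in all 7 clusters, 5 of 10 against 14% of 12576 genes, and Mael was above in all 7, as were 5.26%.

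The round spermatid gate also drew on clusters in unlike numbers, with 441 control and 644 cKO cells in cluster 6 and 386 and 214 in cluster 11. In clusters 6, 7, 11, 15 and 16, which held most of its cells, Piwil1, Tdrd1, Tdrd6 and Ddx4 were below equal levels in 5 of 5, 4 of 10 genes against 16.9% of 12448 genes. Every interval was below for Tdrd6 and Ddx4, and 0 of 5 was for Tdrd1. Mael had 4 intervals above, with cluster 15 the exception (-0.10); 0 of the 10 were above in all 5, against 12%. Cluster 15 was led by haemoglobin genes. In the 6 clusters with the elongating spermatid list as highest mean score (0, 1, 2, 8, 9 and 18), Piwil1, Tdrd1, Tdrd6, Tdrd9 and Ddx4 were below equal levels in all. These were 5 of 10 against 17% of 10059 genes, and 0 were above in all, against 4.96%. In the elongating spermatid gate these 5 genes were near or below their Leydig level, so their ratios there rest on low counts. Control elongating spermatids read 44.2 CPM for Ddx4 (Leydig 42.7), 43.8 for Tdrd6 (61.6) and 37.4 for Piwil1 (44.7). They read 16.0 for Tdrd1 (18.9) and 8.37 for Tdrd9 (10.9). Cluster 10, with the Sertoli list highest, was left out. It held 142 control and 111 cKO cells of the gate, against 124 and 57 in cluster 18. There Piwil1 was above equal levels (0.34, -0.03 to 0.70), and Tdrd1, Tdrd6, Tdrd9 and Ddx4 were below.

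Clusters also spread the set over prophase. Mov10l1 had 793 CPM in control and 686 in cKO cluster 14, against 204 and 167 in cluster 5. Piwil1 peaked in cluster 5, with 1116 and 1226 CPM, a log2 ratio of 0.14 (0.10 to 0.17) where the early prophase gate gave 0.26. Tdrd1 differed in cluster 5 by -0.51 (460 and 324 CPM) and Piwil2 by -0.40 (314 and 237 CPM). Clusters 17 and 4 had median UMIs of 22758 and 28094 per cell, well above the library medians, and doublets were not removed.

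**Figure D3:**
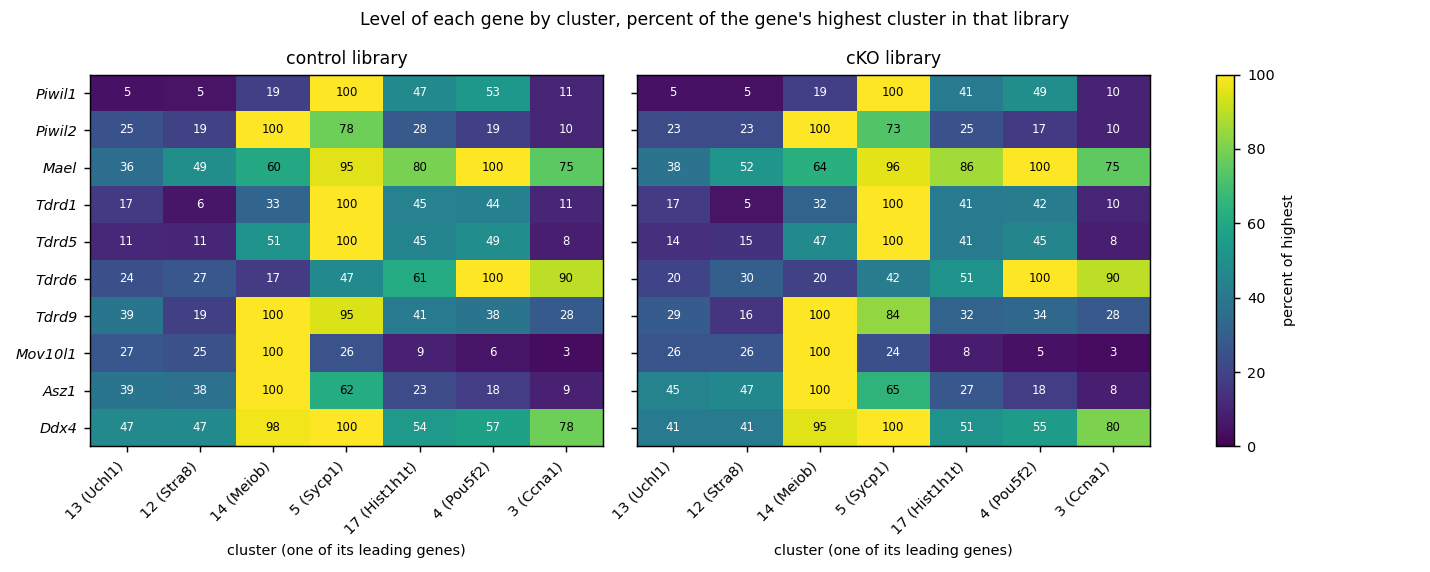
Level of each gene in 7 clusters as a percent of its highest cluster, control on the left and cKO on the right; columns name each cluster's number and 1 of its leading genes. Mov10l1, Asz1, Piwil2 and Tdrd9 peak in cluster 14, Piwil1, Tdrd1, Tdrd5 and Ddx4 in cluster 5, and Mael and Tdrd6 in cluster 4. Clusters 14 and 5 were close in control for Ddx4 (399 and 407 CPM) and Tdrd9 (161 and 152 CPM), so the order is loose there.

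Transcripts of elongating spermatids were present in every gate and differed between the libraries. All 7 genes of that marker list (protamines and transition proteins among them) were detected in each germ-cell gate. Their summed level in the other 5 germ-cell gates ranged from 7873 to 38786 CPM in control and from 6452 to 20852 in cKO, lower in the cKO library in 5 of 5. It was higher in the cKO library in elongating spermatids themselves (214982 and 234041 CPM). Outside the germ line it was lower in the cKO library in the Leydig (25441 and 16507 CPM) and Sertoli gates (80285 and 62690) and higher in the macrophage gate (44940 and 74543). Their part in the ratios was not tested.

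Other genes of the pathway were read from a list of 21, of which 20 passed the filter over the germ-cell gates. The median log2 ratio of those 20 was -0.12, 10 had intervals wholly below equal levels (32.4% of all genes) and 4 wholly above (24.5%). Tex15, which acts in meiotic recombination and piRNA-directed silencing, was the single one past 1.5 times, with 84.4 CPM in control and 55.9 in cKO (-0.59, -0.65 to -0.54). Of all genes 4.71% were past it downward. At a minimum of 2000 UMIs per cell 0 of the list were past it. Tex15 was highest in the meiotic entry gate, with 1298 and 938 CPM, and that gate held 178 control and 54 cKO cells. The part of these unlike cell numbers in its ratio over the germ-cell gates was not tested. The 3 with the most UMIs were Gtsf1, a PIWI cofactor (680 and 740 CPM, 0.12), the transcription factor Tcfl5 (381 and 301 CPM, -0.34) and the helicase Ddx25 (361 and 367 CPM, 0.02). Of the 21, 9 were highest in the early prophase gate in both libraries, again without the share of all genes highest there.

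Similarity of pattern was taken as Pearson's r of log2(CPM + 10) over 14 points (6 germ-cell gates and the Leydig gate in 2 libraries), which share cells, depth and library; it is a description. The 2 most similar genes of 11720 were Gm50166 and Gm21269 for Piwil1 (0.99 and 0.98), Rgs12 and Cntrob for Piwil2 (0.98 and 0.98), Fam178b and Tcp1 for Mael (0.98 and 0.98), Cep70 and Gm9732 for Tdrd1 (0.97 and 0.97) and Pou2f2 and Ttc8 for Tdrd5 (0.98 and 0.98). For Tdrd6 they were Mroh2a and Cfap43 (0.97 and 0.97), for Tdrd9 Cenpc1 and Ccdc191 (0.97 and 0.97), for Mov10l1 Fra10ac1 and Ints7 (0.99 and 0.99), for Asz1 Zc3h8 and Ttc27 (0.98 and 0.97), and for Ddx4 Gtf2f1 and Pick1 (0.97 and 0.97). Within the set, Tdrd1 and Tdrd5 were most alike (0.96), and Tdrd6 and Mov10l1 least (0.06).

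In sorted cKIT+ spermatogonia, the number of promoters of the set with an ATAC region differed widely between libraries of 1 genotype. An ATAC region of the authors' lists overlapped the promoter window (250 bases before to 50 after the start) of 3 and 7 of the 8 genes in the control libraries, and of 3, 4 and 8 in the cKO libraries. The mean was 5.0 ± 2.83 (SD, n = 2) in control and 5.0 ± 2.65 (SD, n = 3) in cKO, a difference of 0 (exact permutation test, two-sided, p = 1; the smallest p this design allows is 0.1). Mael and Mov10l1 carried a region in 5 of 5 libraries, with the authors' fold enrichment from 3.63 to 7.15 and from 4.61 to 7.19. Piwil1 had one in cKO 3 alone. Counts moved with the length of the list, from 14635 regions in cKO 1 to 40497 in cKO 3, which covered 23.7% and 41.3% of all promoter windows. The lists of control 1, control 2 and cKO 2 covered 31.0%, 38.5% and 29.0%. The share of all windows with a region in every ATAC library is not given here. The p-value ranks the difference among relabellings of these libraries. Nothing in the labels says that libraries came from separate animals, so it says nothing about animals.

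H3K27me3, the repressive mark that Kdm6a removes, was listed at the promoters of 2 genes, Piwil1 and Tdrd5. Piwil1 had a region in control 2, cKO 2 and cKO 3, and Tdrd5 in control 1, control 2 and cKO 3. The control libraries had 1 and 2 genes with a region and the cKO libraries 0, 1 and 2, with means of 1.5 ± 0.707 (SD, n = 2) and 1.0 ± 1.0 (SD, n = 3). The difference was -0.5 (exact permutation test, two-sided, p = 0.7), and with the window widened by 1000 bases on each side it was 0.17 (p = 1 by the same exact test). Mael, Tdrd1, Tdrd9, Mov10l1, Asz1 and Ddx4 had none at the promoter window in any library, and the IgG library had none at any of the 8. Over the gene body with 1000 bases on each side, regions were listed at Tdrd1, Tdrd5, Tdrd6 and Mov10l1 in 5 of 5 H3K27me3 libraries and at Piwil1 and Tdrd9 in 4, while Piwil2, Mael, Asz1 and Ddx4 had none. Of 8686 protein-coding genes with spans in the range of the set (16513 to 97367 bases), 12.2% had such a region in 5 of 5 libraries and 16.2% in at least 4. The H3K27me3 lists covered 9.54% and 12.2% of all promoter windows in control 1 and 2, and 5.10%, 7.20% and 11.2% in cKO 1, 2 and 3. By their names, 4 of the 5 lists came from downsampled libraries, cKO 2 being the exception.

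**Figure D4:**
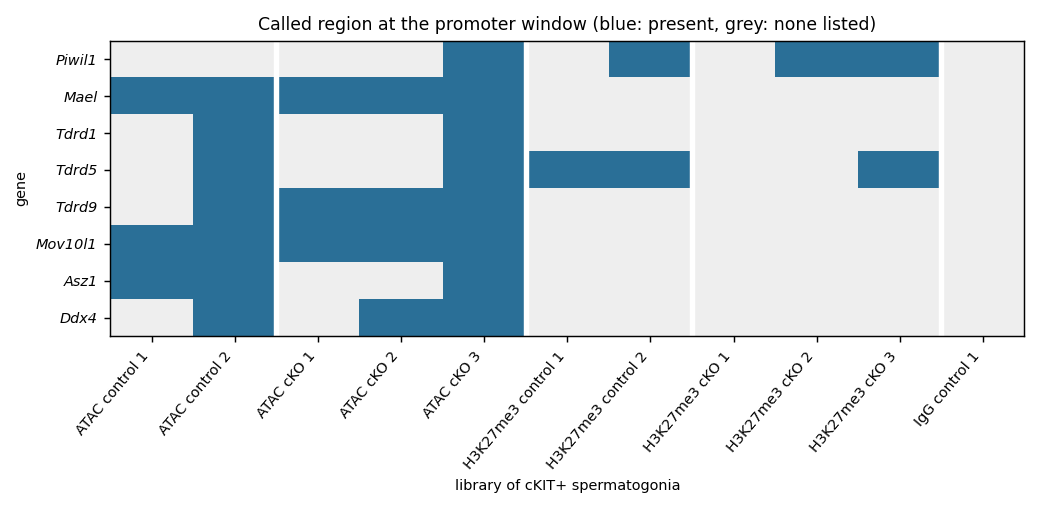
Regions called at the promoter windows of 8 genes in libraries of cKIT+ spermatogonia (columns); blue marks a listed region, grey none. Mael and Mov10l1 are blue in all 5 ATAC columns, and Piwil1 and Tdrd5 are the 2 genes blue in H3K27me3 columns.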

How the data were processed

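The authors deposited single-cell UMI counts for every barcode (Cell Ranger 4, per the file headers; mm10 and Seurat 4.1.0, per the submitters' processing notes). The deposited ATAC lists give a fold enrichment (a ratio) and −log10 q per region, and the deposited CUT&Tag lists give summed signal; MACS2 and SEACR stand in the submitters' processing notes, with mm10, and no source used here gives the scaling of the signal. Barcodes of at least 3000 UMIs were kept. Marker scores were mean z of log counts per 10000 over 11 lists, and a cell was gated at a score of at least 0.5 and 0.25 above the next list, which left 2450 control and 1757 cKO cells ungated; 1994 and 1465 gated cells lay within 0.5 of the next. The myoid and endothelial gates were not used, since no cluster took those names. Scrublet (scanpy 1.11.5) called 591 control and 512 cKO doublets, which were kept. Clusters came from Leiden (leidenalg 0.10.2; 2000 variable genes, 30 components, 15 neighbours, resolution 1). Intervals used scipy 1.17.1. The ratio step and its intervals were checked on simulated Poisson counts, the model the intervals assume, so spread between cells or libraries was not checked. Permutation tests listed every split and were not simulated. Beyond the 10 and the targeted Kdm6a, genes were named by rule: of other pathway genes the 3 highest in control and those past 1.5 times, and for each of the 10 the 2 most similar genes of at least 500 UMIs. Genes leading a cluster are named as labels, and pathway genes with a motif match were named after their windows were searched. Members and lists were chosen with earlier results of these data known. Alternatives were other UMI minimums, filters on genes and mitochondrial share, doublet removal, gate margins, clusters, cell weighting and denominators, and, added later, window width, a q threshold, left-out libraries and a replicate block. Bulk RNA files were not analysed here, since no table paired their transcripts with genes.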

Additional observations from a re-analysis of the deposited data

How the results depend on the processing

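No value of the 10 genes whose counting interval left out equal levels changed sign under the alternatives run. Of 600 gene values under alternatives, 47 changed sign, all with an interval that spanned equal levels; 551 moved by no more than the width on 1 side of the counting interval and 49 moved further. Over all cells, the median log2 ratio of -0.33 became -0.18 with the 6 germ-cell gates weighted equally. In round spermatids the median of -0.09 became -0.28 with each cell weighing the same. Of the other pathway genes, the 1 past 1.5 times became 0 at a minimum of 2000 UMIs. In meiotic entry the median of -0.16 became 0.01 at a minimum of 5000 UMIs and 0.05 with a gate margin of 0.75, and in spermatogonia -0.35 became -0.22 at that margin. No cluster had the meiotic entry list as its highest mean score, so clusters gave no value there. Cluster 12 held 129 of 178 control and 25 of 54 cKO meiotic entry cells. It took the early prophase name although Stra8, of the meiotic entry list, was among its top genes. Leaving out 1 library at a time, the ATAC difference (cKO minus control, genes with a region) ran from -2 to 2 and the H3K27me3 difference from -1 to 0; with the window widened by 1000 bases on each side the latter was 0.17. With a replicate block over the shared numbers, which the labels do not say pair the samples, the differences were -1.5 and -1. No paired analysis was possible because each genotype had 1 library in the single-cell data. Depth limits the meiotic entry gate most, with 54 cKO cells and 5 of 10 genes past 100 UMIs.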
